A study of Mus musculus with 11 samples.

Results

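Floxed alleles of Ern1, the gene of the endoplasmic reticulum stress sensor IRE1, were carried by 4 of the 11 pools of tumor cDC1s, and the other 7 pools lacked them. The pools were divided by the genotype in the sample labels and by no measured value. Type 1 conventional dendritic cells (cDC1s) had been isolated from B16 melanoma tumors for bulk RNA-seq, and each pool joined cells of 2 to 4 mice of 1 genotype. All 11 pools were XBP1 fl/fl, so every mouse carried floxed Xbp1, and all mice were adults of both sexes kept on a C57BL/6 background. The study's reagent list, however, gives the floxed Ern1 line a strain name of mixed origin, not of C57BL/6 alone. Which strain's DNA lies beside the allele in these pools was not tested. There were 4 genotypes. The Cre-negative pools comprised 3 of XBP1 fl/fl mice and a lone pool of XBP1 fl/fl, IRE1 fl/fl mice, and in these all exons were left in place. The Cre-positive pools carried CD11c-CRE, driven by the Itgax promoter and active in CD11c+ cells, and comprised 4 of XBP1 fl/fl mice (XBP1ΔDC) and 3 of XBP1 fl/fl, IRE1 fl/fl mice (XBP1ΔDCIRE1truncDC). Cre removes exon 2 of Xbp1 in both, and in the latter also exons 20 and 21 of Ern1, which leaves a truncated IRE1 without its RNase domain. The comparison asked which genes go with the floxed Ern1 allele whether or not Cre is present, and which go with it where Cre has removed the exons. Among Cre-positive pools the allele and its deletion go together, so only the Cre-negative pools show the allele without the deletion, and there it has 1 pool. Mice were bred at several facilities, and pools were not labelled by facility, litter or date, so these cannot be told apart from the allele.

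IRE1 sits in the membrane of the endoplasmic reticulum, where its RNase splices the Xbp1 mRNA into the form that encodes the transcription factor XBP1s. The same RNase can degrade other mRNAs, a process called regulated IRE1-dependent decay or RIDD, which is known from XBP1-deficient dendritic cells. A floxed allele is made by gene targeting, and when it is bred into another strain it is passed on together with the DNA next to it on the chromosome. Genes in such a stretch are called passengers, because any difference they carry travels with the allele and not with its deletion. Ern1 lies on chromosome 11, at 106394650 to 106487852 of GRCm38 on the minus strand, and Xbp1 lies on the same chromosome at 5520659 to 5525893.

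The sequences below show what the floxed allele has and what Cre takes from it, since this is the designed difference between floxed pools with and without Cre. They were read from GENCODE vM21 (GRCm38, transcript Ern1-201, which has 22 exons) on the minus strand, 5′ to 3′, and the exon numbers assume that the study counted exons as this transcript does. Exon 20 (chr11:106400195-106400318) has 124 bases and exon 21 (chr11:106399772-106399839) has 68. Both are coding, and together they have 192 bases, the length of 64 codons with 0 bases left over. In the line for the floxed exons, capitals mark exons 20 and 21 and lower case marks the 30 bases on either side in exons 19 and 22. In the line for the deleted allele, capitals mark the last base of exon 19 and the first base of exon 22, which the deletion brings together.
Floxed exons: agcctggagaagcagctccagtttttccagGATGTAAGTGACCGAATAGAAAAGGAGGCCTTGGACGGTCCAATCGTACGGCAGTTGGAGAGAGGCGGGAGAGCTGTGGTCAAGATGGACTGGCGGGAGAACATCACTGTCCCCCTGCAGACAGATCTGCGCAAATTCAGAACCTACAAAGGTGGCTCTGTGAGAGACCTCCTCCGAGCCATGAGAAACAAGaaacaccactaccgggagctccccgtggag
After deletion: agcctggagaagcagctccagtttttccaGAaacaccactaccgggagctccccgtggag

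Depth was alike with and without the floxed allele. The 4 floxed pools held 21089065 to 26019797 counts (median 22945053) and the 7 unfloxed pools 21889074 to 26843486 (median 24438880). Counts were scaled by the TMM method and are given as CPM, each gene's count relative to the library's scaled total, and 10951 of 24421 genes were above 1 CPM in at least 4 pools and were tested. Of 13 cDC1 markers all were tested, and their summed level was 14200 to 16700 CPM in floxed and 13300 to 15700 CPM in unfloxed pools. Of markers of other cells, 11 monocyte and macrophage genes were at a summed 676 to 1420 CPM in floxed and 901 to 1350 CPM in unfloxed pools, and 10 genes of cDC2s and plasmacytoid dendritic cells at 144 to 158 CPM and 135 to 184 CPM. The 9 T and NK cell genes were at a summed 0.535 to 15.5 CPM in floxed and 0.688 to 2.55 CPM in unfloxed pools. The 8 melanoma genes were at a summed 8.73 to 61.4 CPM in floxed and 8.95 to 65.7 CPM in unfloxed pools, and the lone pool had the 61.4 CPM. In the lone pool 8 keratinocyte, fibroblast and endothelial genes summed to 18.1 CPM, above the 6.88 to 12 CPM of the other Cre-negative pools. The part of these cells in the results was not tested, and in bulk samples fewer cells of a type and less RNA per cell cannot be told apart. The p-values measure the spread between pools, and the lone pool is assumed to vary like the others. The balance of the sexes in the pools was not even. Xist, which is transcribed from the inactive X chromosome of females, was at 0 and 0.434 CPM in XBP1ΔDCIRE1truncDC replicates 1 and 3 and at 15.5 to 70.1 CPM in the 9 other pools. Ddx3y, on the Y chromosome, was at 73.8 and 83.7 CPM in that pair of pools and at 14.8 to 54.7 CPM in the others. Thus 2 of the 3 Cre-positive floxed pools had little or no female signal, while the third and the lone pool had 47.9 and 35.6 CPM of Xist. Of 5 sex-linked genes 0 had an unadjusted p under 0.05 over all pools, and Xist was called with Cre when XBP1ΔDCIRE1truncDC replicate 2 was left out. The part of sex in the results was not tested.

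Ern1 itself went in opposite directions with and without Cre, and no difference in Ern1 or Xbp1 was called. Ern1 was at 9.81 CPM in the lone Cre-negative floxed pool, below the 18.97, 14.1 and 13.1 CPM of the 3 Cre-negative unfloxed pools. In the 3 Cre-positive floxed pools it was at 21.4, 17.0 and 25.97 CPM, above the 9.73, 15.6, 12.8 and 11.4 CPM of the 4 Cre-positive unfloxed pools. The floxed pools were therefore at the low end without Cre and at the high end with Cre, and counts per gene do not tell transcripts with exons 20 and 21 from those without. The log2 fold change of Ern1, floxed against unfloxed, was 0.79 among Cre-positive pools (SE 0.206, adjusted p = 0.413 by edgeR's quasi-likelihood test) and -0.65 among Cre-negative pools (SE 0.329, adjusted p = 1 by the same test). The difference between these, the interaction, was 1.44 (SE 0.395, unadjusted p = 0.00357 and adjusted p = 0.998 by edgeR). Xbp1, in contrast, was higher in floxed pools in both Cre states, though only slightly without Cre. Xbp1 was at 270.5 CPM in the lone pool against 244 to 254 CPM, a log2 fold change of 0.12 (SE 0.16). With Cre it was at 179 to 236 CPM against 130 to 165 CPM, a log2 fold change of 0.46 (SE 0.106). Its adjusted p in edgeR was 0.841 over all 11 pools. Itgax, whose promoter drives Cre, had a log2 fold change of 0.05 (SE 0.0963, adjusted p = 1 by edgeR).

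Over all 11 pools, with Cre as a term of the fit, 3 genes differed with the floxed allele, 0.0274% of those tested. Arf2, a small GTPase of vesicle transport at the Golgi, and Cyb561, an electron carrier of secretory vesicle membranes, were lower in floxed pools, and Lsm12, an RNA-associated LSM protein, was higher. All 3 lie on chromosome 11 within 5 Mb of Ern1, on its centromeric side. In all 3 the lone Cre-negative floxed pool was outside the range of the Cre-negative unfloxed pools, and the 3 Cre-positive floxed pools did not overlap the 4 Cre-positive unfloxed pools, in the same direction. Calls are genes with an adjusted p under 0.05 (edgeR's quasi-likelihood test, Benjamini-Hochberg over all genes tested) and a fold change above 1.5, and 418 genes (3.82%) had an unadjusted p under 0.05, 215 higher (1.96%) and 203 lower (1.85%). Without the lone pool the allele occurs only with Cre, so that fit is the contrast among Cre-positive pools, and it called 8 genes.

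Arf2 lies at chr11:103966739-103985337, 2.47 Mb from Ern1. It was at 35.8 CPM in the lone Cre-negative floxed pool and at 45.0, 51.3 and 39.7 CPM in the 3 Cre-positive floxed pools. The 7 unfloxed pools ranged from 210 to 370 CPM, with a median of 257 CPM. The floxed pools with and without Cre were thus near each other and far below all unfloxed pools. The mean was 43.0 ± 6.74 CPM in floxed (SD, n = 4) and 277 ± 62.2 CPM in unfloxed pools (SD, n = 7). The log2 fold change was -2.70 (SE 0.185, adjusted p = 3.1e-05 by edgeR), which is 6.5-fold lower. Read apart, it was -2.58 among Cre-positive pools (SE 0.211, adjusted p = 0.000143 by edgeR) and -2.99 among Cre-negative pools (SE 0.354, adjusted p = 0.0285 by edgeR). Arf2 was the only gene called among Cre-negative pools, 0.00913% of those tested, where 324 genes (2.96%) had an unadjusted p under 0.05. That call was lost, and 0 genes were called by edgeR, without control XBP1 fl/fl replicate 3, XBP1ΔDC replicate 2 or 4 or XBP1ΔDCIRE1truncDC replicate 1. Its interaction with Cre was 0.41 (SE 0.357, adjusted p = 0.998 by edgeR). Over all pools, Arf2 kept its call in all 22 alternative settings.

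Cyb561 lies at chr11:105933702-105953336, 0.5 Mb from Ern1. It was at 0.937 CPM in the lone pool and at 1.09, 1.26 and 1.26 CPM in the Cre-positive floxed pools. The unfloxed pools ranged from 4.98 to 12.5 CPM, with a median of 8.30 CPM. The raw counts were 21 in the lone pool, 27 to 29 in the Cre-positive floxed pools and 109 to 302 in the unfloxed pools, so no pool was at 0. All 4 floxed pools were below all 7 unfloxed pools, with a log2 fold change of -2.78 (SE 0.273, adjusted p = 0.00103 by edgeR), or 6.88-fold lower. It was -2.57 with Cre (SE 0.301, adjusted p = 0.00518 by edgeR) and -3.35 without Cre (SE 0.517, adjusted p = 0.189 by edgeR). Cyb561 too kept its call over all pools in all 22 settings.

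Lsm12, at chr11:102162497-102185296, is 4.27 Mb from Ern1 and moved the other way. It was at 71.3 CPM in the lone pool and at 80.9, 81.8 and 82.9 CPM in the Cre-positive floxed pools. The unfloxed pools ranged from 45.2 to 60.4 CPM, with a median of 48.5 CPM. The floxed pools were all higher, the lone pool least so. The log2 fold change was 0.62 (SE 0.0889, adjusted p = 0.0405 by edgeR), or 1.54-fold. It was 0.66 with Cre (SE 0.11, adjusted p = 0.0624) and 0.53 without Cre (SE 0.163, adjusted p = 1), both by edgeR and neither called. Of the 11 fits that each left out 1 pool, Lsm12 kept its call only in the fit without XBP1ΔDC replicate 3, and its adjusted p by edgeR was 0.0199 to 0.205 over these fits, with a log2 fold change of 0.58 to 0.67.

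**Figure D1:**
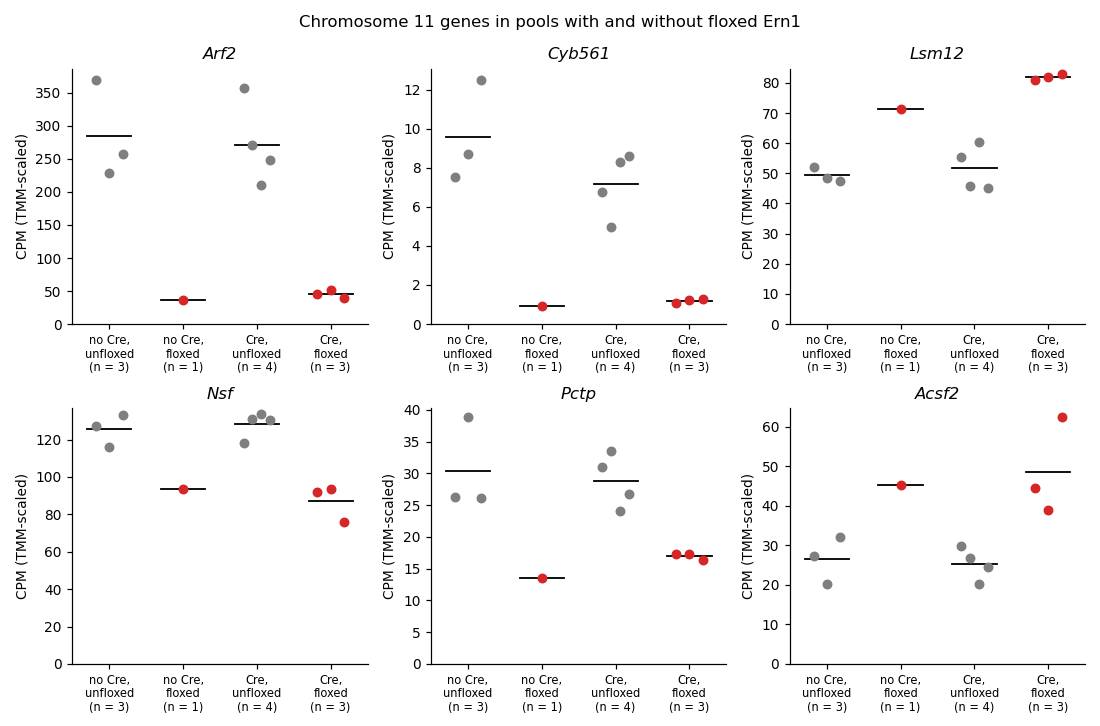
TMM-scaled CPM of 6 genes of chromosome 11 in each of the 11 pools, by genotype, with unfloxed pools in gray, floxed pools in red and a black line at the mean of a genotype; each vertical axis starts at 0. In each gene the lone floxed pool without Cre lies on the same side as the 3 floxed pools with Cre, at 35.8 CPM against 45.0, 51.3 and 39.7 CPM for Arf2.

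Other members of the families of these 3 genes were listed after the calls were seen. Of 6 ARF small GTPases tested, Arf2 alone had an unadjusted p under 0.05 over all pools, and the family's summed level was 1970 to 2280 CPM in floxed and 2120 to 2630 CPM in unfloxed pools. Over all pools, of 5 cytochrome b561 family genes Cyb561 alone had one, and of 13 LSM family genes Lsm12 alone. Cyb561d2, which is also in the list of RIDD targets, had one with Cre. With Cre it was at 22.7 to 25.9 CPM in floxed and 19.7 to 21.5 CPM in unfloxed pools. In the lone pool it was at 25.5 CPM, just above the 24.4 to 25.4 CPM of the other Cre-negative pools. The median log2 fold changes of the 3 families were -0.02, 0.10 and 0.04, against 0.00 over all genes tested.

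Genes near Arf2 on the chromosome had small p too, and they were chosen after their values were seen. Nsf, the ATPase that takes apart SNARE complexes after membrane fusion, ends 12.7 kb from the start of Arf2. It was at 93.6 CPM in the lone pool and at 91.8, 93.8 and 75.6 CPM in the Cre-positive floxed pools. In unfloxed pools it was at 116 to 134 CPM, above all 4 floxed pools. Its log2 fold change was -0.52 (SE 0.0786, adjusted p = 0.055 by edgeR), or 1.43-fold lower, so it passed neither threshold of a call. C130046K22Rik, 2.73 Mb from Ern1, had 1 count in the lone pool, 1, 1 and 7 counts in the Cre-positive floxed pools and 15 to 85 counts in the unfloxed pools. Its adjusted p was 0.163 by edgeR, and it overlaps Gosr2 in the annotation, so that reads of the pair may not be told apart. Of the 4 other genes tested within 0.5 Mb of Arf2, these were the 2 with an unadjusted p under 0.05 (background 3.82%).

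The genes nearest to Ern1 were read next. Within 1 Mb of Ern1, 25 other genes were tested, and 3 of them, Cyb561, Limd2 and Map3k3, had an unadjusted p under 0.05 (3.82% of all genes). Cyb561 was the only 1 of the 25 in which floxed and unfloxed pools did not overlap in either Cre state in the same direction (1.28% of all genes). Map3k3, a kinase of the MAP kinase pathways, had a log2 fold change of 0.18 (SE 0.0753, adjusted p = 1 by edgeR), and its lone pool value of 115 CPM was within the 96.3 to 119 CPM of the Cre-negative unfloxed pools. Limd2, which is in the list of RIDD targets, was at 142 CPM in the lone pool, just below the 143 to 171 CPM of its Cre-negative unfloxed pools. With Cre it was higher in floxed pools, at 161 to 191 CPM against 125 to 145 CPM. Around Lsm12, 6 of 14 other genes within 0.5 Mb had an unadjusted p under 0.05, and 3 of them, Atxn7l3, Dusp3 and Ubtf, did not overlap in either Cre state.

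Across the genome, 140 genes (1.28% of those tested) did not overlap between floxed and unfloxed pools in either Cre state and moved in the same direction in both, 63 higher (0.575%) and 77 lower (0.703%). Non-overlap here means that the lone pool was outside the range of the 3 Cre-negative unfloxed pools and that the Cre-positive floxed and unfloxed pools were fully apart, whatever the p-value. Of these genes 35 were on chromosome 11, which is 3.68% of its 951 tested genes, and 105 were elsewhere, 1.05% of 9983 genes. The other chromosomes held between 0% and 1.98%. Counted on chromosome 11 is Xbp1, 100.92 Mb from Ern1, which was floxed in all pools and loses exon 2 with Cre. The 35 genes of chromosome 11 were 16 higher and 19 lower. Of these, 31 were on the centromeric side of Ern1, which had 787 tested genes against 163 on the other side. Within 20 Mb of Ern1 they were 19 of 214 tested genes on the centromeric side and 4 of 163 on the other. The nearest on the other side was Tsen54, 9.38 Mb from Ern1. Taken over all pools regardless of Cre, 68 genes (0.621%) had the 4 floxed pools apart from the 7 unfloxed pools, 29 higher (0.265%) and 39 lower (0.356%), and 21 of them were on chromosome 11.

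**Figure D2:**
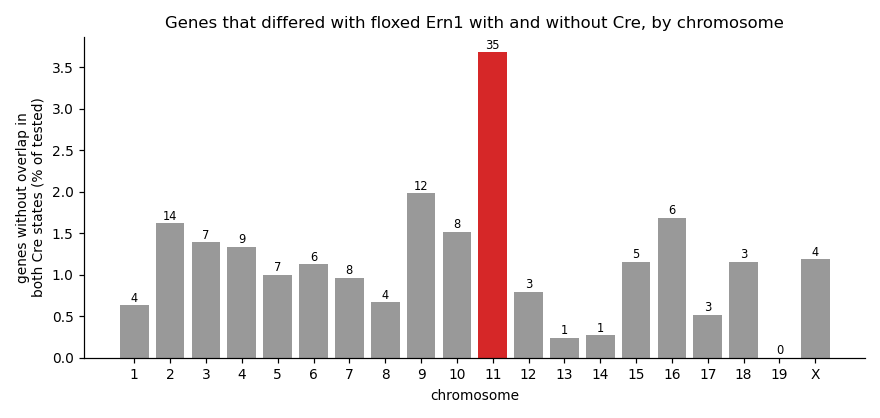
Share of tested genes on each autosome and the X chromosome, in percent, in which floxed and unfloxed pools did not overlap with Cre or without Cre, in the same direction; the number over each bar counts the genes. Chromosome 11, which carries Ern1, is in red and stands at 3.68%, and the next highest chromosome is at 1.98%.

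Along chromosome 11 the share was highest near Ern1. It was 13.3% (11 of 83 genes) within 5 Mb, 4.26% (6 of 141) from 5 to 10 Mb and 3.92% (6 of 153) from 10 to 20 Mb. Farther away it was 1.98% (5 of 253) from 20 to 40 Mb and 2.19% (7 of 320, Xbp1 included) beyond. The share of genes with an unadjusted p under 0.05 over all pools was also highest there, at 22.9% within 5 Mb, 7.09% from 5 to 10 Mb and 7.19% from 10 to 20 Mb. Farther out it was 4.35% and 2.81%, and it was 3.58% on other chromosomes. The median size of the log2 fold change was 0.17 within 5 Mb, 0.09 from 5 to 10 Mb and 0.09 on other chromosomes. No test was made of these shares, because neighbouring genes share their chromosome and are not replicates.

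**Figure D3:**
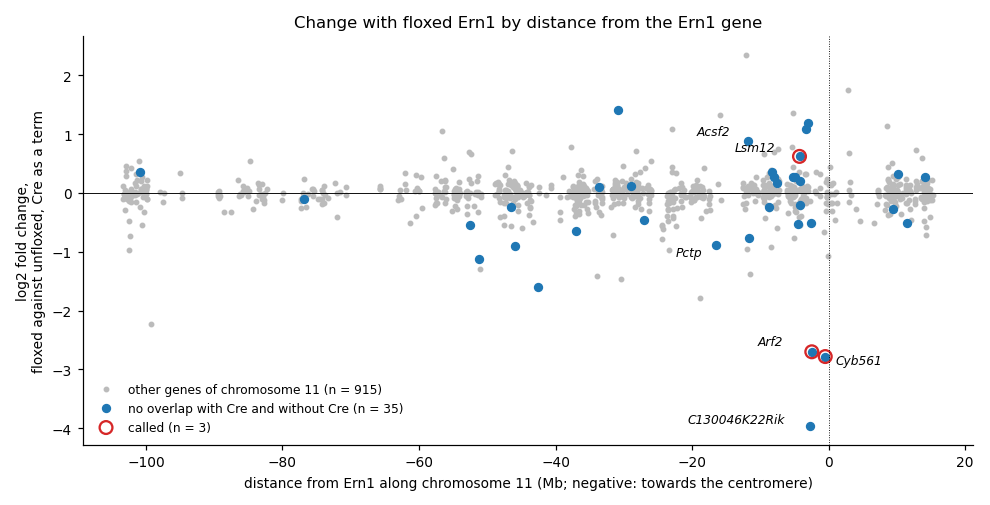
Log2 fold change of each tested gene of chromosome 11, floxed against unfloxed with Cre as a term (vertical axis), by the distance of its midpoint from that of Ern1 in Mb (horizontal axis, negative towards the centromere). Blue points are the 35 genes without overlap in both Cre states, red rings the 3 called genes, and gray points the other 915 genes, with Ern1 itself left out; the ringed genes all lie from 0.5 to 4.27 Mb on the negative side.

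Several of the 35 genes, named here after their values were seen, differed by more than 1.5-fold without being called. Pctp, which carries phosphatidylcholine between membranes, is 16.45 Mb from Ern1. It was at 13.5 CPM in the lone pool and 16.4 to 17.3 CPM in the Cre-positive floxed pools, and at 24.1 to 39.0 CPM in unfloxed pools. Its log2 fold change was -0.88 (SE 0.150, adjusted p = 0.111 by edgeR). Acsf2, an acyl-CoA synthetase, is 11.86 Mb from Ern1 and was at 45.2 CPM in the lone pool and 38.9 to 62.5 CPM in the Cre-positive floxed pools. Its unfloxed pools were at 20.1 to 32.0 CPM, below all floxed pools, and the log2 fold change was 0.89 (SE 0.159, adjusted p = 0.134 by edgeR). Gm11545 and Acbd4, which encodes an acyl-CoA binding protein, had log2 fold changes of -0.77 and 1.08 (adjusted p = 0.341 and 0.561 by edgeR).

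Other genes of the 35 differed little but kept the floxed pools apart. Med1, a subunit of the Mediator complex, was at 97.1 CPM in the lone pool, 92.8 to 103 CPM in the Cre-positive floxed pools and 68.0 to 83.0 CPM in unfloxed pools. Nf1, which encodes the Ras regulator neurofibromin and is 26.98 Mb from Ern1, was at 23.95 CPM in the lone pool, 23.3 to 27.6 CPM in the Cre-positive floxed pools and 29.4 to 39.0 CPM in unfloxed pools. Dusp3, a phosphatase of MAP kinases, was at 40.1 CPM, 31.3 to 43.8 CPM and 50.2 to 64.7 CPM in the same groups. In all 3 the floxed pools did not overlap the unfloxed pools whatever the Cre state. Their log2 fold changes were 0.35, -0.46 and -0.52, with adjusted p of 0.43, 0.561 and 0.393 by edgeR.

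The contrast among Cre-positive pools shares no pool with the contrast among Cre-negative pools, so the first was used to list genes and the second to read them. Of 544 genes with an unadjusted p under 0.05 with Cre (4.97% of those tested), the lone Cre-negative floxed pool was beyond the range of its unfloxed counterparts in the same direction for 126 (23.2%). It was within their range for 242 and beyond it in the opposite direction for 176. For the 42 genes on chromosome 11 within 20 Mb of Ern1, Ern1 included, it went the same way in 21 (50%), within range in 14 and the opposite way in 7. Farther out on chromosome 11 it went the same way in 6 of 23 (26.1%), and on other chromosomes in 99 of 477 (20.8%). With the sign turned so that the direction with Cre is positive, the median log2 fold change without Cre was 0.16 for the 42 genes and -0.04 on other chromosomes. These shares rest on 1 pool without Cre and were not tested.

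**Figure D4:**
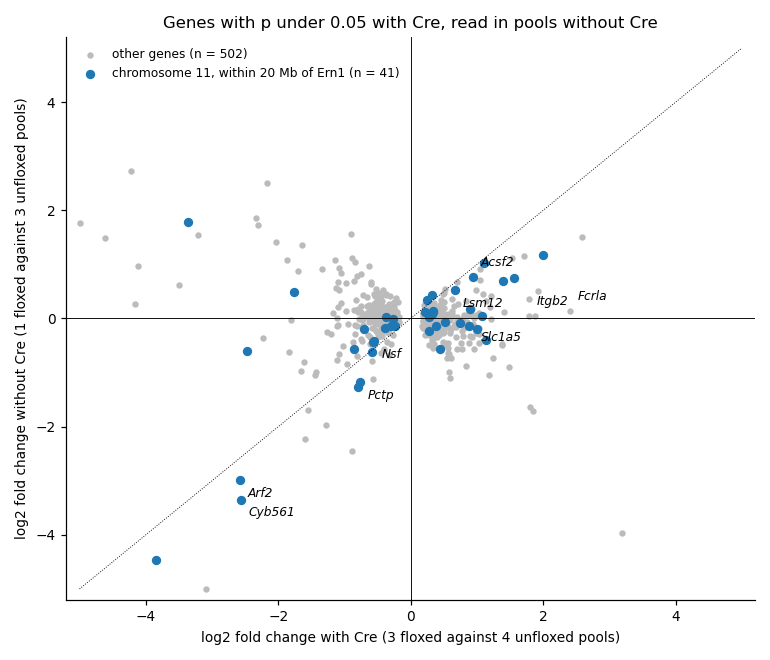
Log2 fold change among Cre-negative pools (vertical axis, 1 floxed against 3 unfloxed pools) against that among Cre-positive pools (horizontal axis, 3 against 4) for the 543 genes other than Ern1 with an unadjusted p under 0.05 with Cre; 2 genes beyond the limit of 5 are drawn at it and the dotted line marks equal values. The 41 blue points within 20 Mb of Ern1 on chromosome 11 include Arf2 and Cyb561 low on both axes, and Itgb2, Fcrla and Slc1a5 lie near 0 on the vertical axis.

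Away from chromosome 11, 105 of 9983 genes (1.05%) did not overlap in either Cre state, in the same direction, against 1.28% of all genes tested. How many genes would meet this rule without any link to the allele was not estimated, so meeting it does not by itself show a link. The rule also takes in Itgb2, on chromosome 10, whose log2 fold change was 1.78 with Cre (SE 0.11) and 0.05 without Cre (SE 0.165). From the 105 genes 3 examples follow. Dpp7, a dipeptidyl peptidase gene on chromosome 2, was at 18.0 CPM in the lone pool and at 19.2, 16.7 and 15.8 CPM in the Cre-positive floxed pools. All unfloxed pools were lower, at 11.7 to 12.99 CPM without Cre and 7.56 to 9.60 CPM with Cre. Its log2 fold change was 0.85 over all pools (SE 0.131, adjusted p = 0.055 by edgeR, not a call) and 0.98 among Cre-positive pools (SE 0.147, adjusted p = 0.0356 by edgeR). Mx2, an interferon-induced GTPase on chromosome 16, was at 2.72 CPM in the lone pool, 2.61 to 3.05 CPM in the Cre-positive floxed pools and 3.77 to 6.52 CPM in unfloxed pools. Its log2 fold change was -0.95 (SE 0.223, adjusted p = 0.565 by edgeR). Fzd4, a Wnt receptor gene on chromosome 7, was at 2.23 CPM in the lone pool, 1.02 to 2.50 CPM in the Cre-positive floxed pools and 0.0765 to 0.999 CPM in unfloxed pools, with an adjusted p of 0.584 by edgeR. All 3 were named after their values were seen.

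Among Cre-positive pools, 8 genes were called (0.0731%), 6 higher and 2 lower in XBP1ΔDCIRE1truncDC than in XBP1ΔDC pools. The 2 lower were Arf2 and Cyb561. Of the 6 higher, Dpp7 also went with the allele in the lone pool, as given above. In 4 of the others, Slc1a5, Fcrla, Fam134c and Notch4, the lone pool was within the range of the Cre-negative unfloxed pools or beyond it the other way (0.0365% of genes met this rule). In the sixth, Itgb2, it was just above that range. In all 5 genes the 4 XBP1ΔDC pools were below the other 7 pools, with or without the floxed allele. Left out in turn, XBP1ΔDC replicate 2 and XBP1ΔDCIRE1truncDC replicates 1 and 2 moved the number of Cre-restricted genes from 4 to 7, 2 and 7, and control XBP1 fl/fl replicate 3 moved it to 2; without XBP1ΔDCIRE1truncDC replicate 1 the number called with Cre fell from 8 to 4.

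Itgb2, the integrin chain CD18 of leukocytes, was at 854 CPM in the lone pool and 841, 808 and 819 CPM in the other Cre-negative pools. With Cre it was at 997, 923 and 827 CPM in floxed pools and 226, 300.4, 241 and 300.5 CPM in unfloxed pools. The lone pool was thus among the Cre-negative pools in level, and the Cre-positive groups were far apart. The log2 fold change was 1.78 with Cre (SE 0.11, adjusted p = 2.6e-05 by edgeR) and 0.05 without Cre (SE 0.165, adjusted p = 1 by edgeR). The interaction of 1.72 (SE 0.210, adjusted p = 0.0379 by edgeR) passed the test. Slc1a5, a glutamine transporter, had the other called interaction, 1.05 (SE 0.140, adjusted p = 0.0467 by edgeR), so 2 genes were called (0.0183%). It was at 184 CPM in the lone pool against 203, 208 and 184 CPM in the other Cre-negative pools. With Cre it was at 215, 205 and 201 CPM in floxed and 101 to 111 CPM in unfloxed pools. For the interaction 484 genes (4.42%) had an unadjusted p under 0.05, 292 higher (2.67%) and 192 lower (1.75%). No interaction was called when control XBP1 fl/fl replicate 1, 2 or 3, XBP1ΔDC replicate 3 or XBP1ΔDCIRE1truncDC replicate 1 was left out, and 1 was called in each of the 5 other fits of this kind, Itgb2 in 4 and Fcrla in 1. The interaction of Slc1a5 was called in none of these fits.

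Fcrla, an Fc receptor-like protein kept inside the cell, was at 66.9 CPM in the lone pool and 53.0 to 67.7 CPM in the other Cre-negative pools. With Cre it was at 90.2, 61.4 and 101 CPM in floxed and 13.4 to 20.1 CPM in unfloxed pools, a log2 fold change of 2.40 (SE 0.182, adjusted p = 0.000124 by edgeR). Its interaction was 2.27 (SE 0.347, adjusted p = 0.115 by edgeR) and was not called. Notch4, a Notch receptor, was at 42.3 CPM in the lone pool and 42.5 to 52.8 CPM in the other Cre-negative pools, with 40.2, 33.3 and 43.5 CPM in floxed and 15.4 to 22.3 CPM in unfloxed pools with Cre. Its log2 fold change was 1.03 with Cre (SE 0.145, adjusted p = 0.0226 by edgeR), and its interaction was 1.21 (SE 0.272, adjusted p = 0.998 by edgeR).

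Fam134c, a receptor for autophagy of the endoplasmic reticulum, is on chromosome 11 at 5.33 Mb from Ern1, nearer than Pctp and Acsf2. It was at 38.9 CPM in the lone pool, within the 33.6 to 42.1 CPM of the other Cre-negative pools. With Cre it was at 39.1, 32.6 and 36.9 CPM in floxed and 14.1 to 18.6 CPM in unfloxed pools, so the groups were apart only with Cre. Its log2 fold change was 1.07 with Cre (SE 0.132, adjusted p = 0.00726 by edgeR) and 0.05 without Cre (SE 0.199, adjusted p = 1 by edgeR). The interaction was 1.03 (SE 0.247, adjusted p = 0.998 by edgeR).

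**Figure D5:**
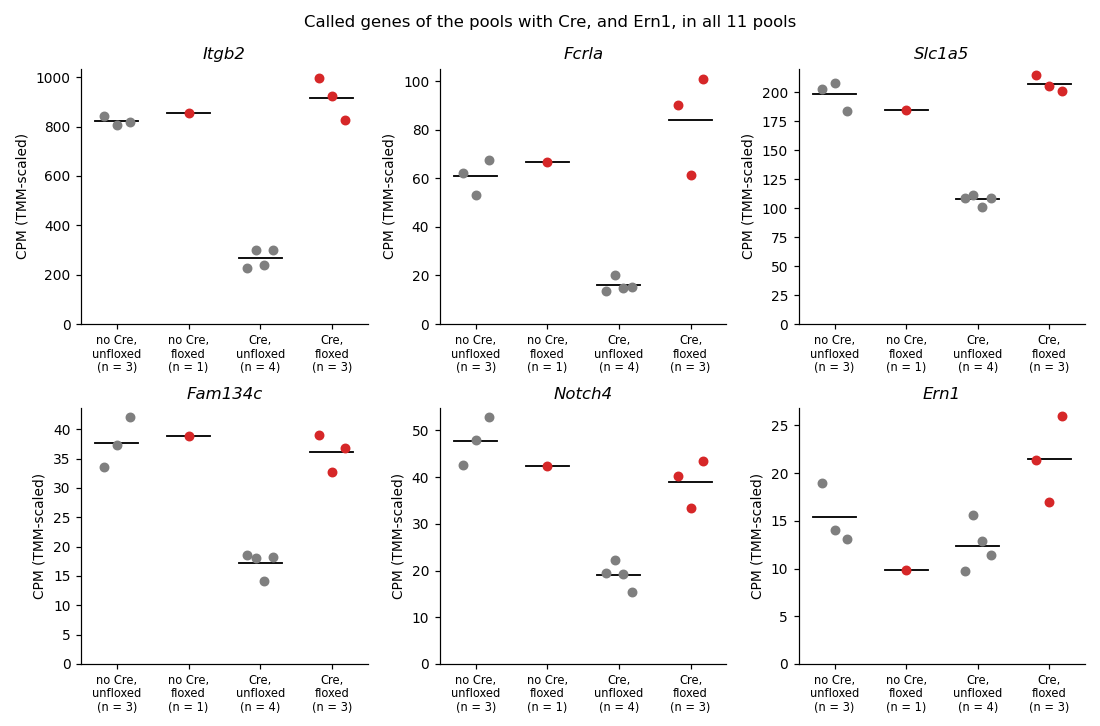
TMM-scaled CPM in each of the 11 pools, by genotype, of 5 genes called among Cre-positive pools and of Ern1, with unfloxed pools in gray, floxed pools in red and a black line at the mean; each vertical axis starts at 0. In Itgb2 the lone floxed pool without Cre is at 854 CPM beside 808 to 841 CPM, and the unfloxed pools with Cre are at 226 to 300.5 CPM.

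Pathway lists were read the same way. The list of RIDD targets has 79 genes, of which 78 were tested. With Cre, 27 were higher in floxed pools with an unadjusted p under 0.05 and 0 lower (2.59% and 2.37% of all genes), and without Cre 1 was higher and 1 lower (1.21% and 1.74%). The median log2 fold change was 0.24 with Cre and -0.07 without Cre, against 0.00 and -0.01 over all genes. None of the 78 was called in any of the comparisons. Their summed level was 12900 CPM in the lone pool, below the 13100 to 13800 CPM of the other Cre-negative pools. Bloc1s1, a lysosome biogenesis subunit and widely used RIDD target, was at 31.4 CPM in the lone pool and 32.0 to 40.6 CPM in the other Cre-negative pools. With Cre it was at 34.0 to 41.8 CPM in floxed and 14.3 to 23.1 CPM in unfloxed pools, with a log2 fold change of 0.98 (SE 0.158, adjusted p = 0.0575 by edgeR). Of 12 RIDD targets named by the study, which were chosen on these same samples and are not independent evidence, all 12 were higher with Cre at an unadjusted p under 0.05 and 0 without Cre.

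The other branches of the stress response were read against the same shares of all genes with an unadjusted p under 0.05, with Cre 2.59% higher and 2.37% lower, and without Cre 1.21% and 1.74%. Of 60 XBP1s targets, all tested, 5 were higher with Cre at an unadjusted p under 0.05 and 0 lower, and without Cre 0 had such a p, with 0 called. In the 15 ATF6 target and chaperone genes 5 were higher with Cre, Hspa5, the chaperone BiP, among them, and 0 without Cre. The 16 tested PERK and ATF4 targets had 3 higher with Cre and 3 lower without Cre, with medians of 0.20 and -0.38. The lone pool had the lowest summed level of that list among the floxed pools, at 1140 CPM, and was also below the 1380 to 1670 CPM of the other Cre-negative pools. Of 22 IRE1 partners and regulators 6 were higher and 1 lower with Cre, and 0 had an unadjusted p under 0.05 without Cre. That list holds the floxed genes Ern1 and Xbp1 themselves, both among the 6, and it shares members such as Hspa5 with the lists above. The lists of XBP1s targets and RIDD targets also share members, Mlec and Fdps among them, so their counts are not separate.

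Dendritic cell and stress lists were read over all pools, where 1.96% of all genes were higher and 1.85% lower at an unadjusted p under 0.05. Of 20 type I interferon response genes, 2 were lower, Mx2 and the RNA sensor gene Ifih1. Of 13 cDC1 identity genes 2 were higher, Zbtb46, a transcription factor of conventional dendritic cells, and Naaa, a lysosomal amidase. Naaa was at 4350 CPM in the lone pool and 3920 to 4170 CPM in the other Cre-negative pools. With Cre it was lower in all pools, at 3220 to 3410 CPM in floxed and 2700 to 3050 CPM in unfloxed pools. Zbtb46 was at 205 CPM in the lone pool, 206 to 249 CPM in the Cre-positive floxed pools and 165 to 199 CPM in unfloxed pools, a log2 difference of 0.23 (adjusted p = 0.932 by edgeR). Of 12 immediate early and heat shock genes 3 were lower, Jun, Hspa1a and Hspa1b. Hspa1b was at 687 CPM in the lone pool, 343 to 686 CPM in the Cre-positive floxed pools and 673 to 1037 CPM in unfloxed pools, and the log2 difference was -0.63 (adjusted p = 0.841 by edgeR). None of these genes was called. Of 20 MHC presentation, 14 maturation and 10 cell cycle genes, 1, 0 and 1 had an unadjusted p under 0.05 over all pools. Of 5 genes that differ between laboratory strains, Crb1 and Nlrp12 had 0 counts in every pool. The other 3, Nnt, Cyfip2 and Casp4, were tested, and 0 had an unadjusted p under 0.05. So short a list cannot show whether strain DNA differs between the pools.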

How the data were processed

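Per the labels and the study's methods, RNA of 11 pools of sorted tumor cDC1s was made into SMART-seq v4 libraries, which do not mark strand, and sequenced single-end. The submitters' processing notes name FastQC 0.11.8, Trimmomatic 0.39, STAR 2.7.3a, limma 3.42.2 and the build mm10. The authors deposited raw read counts per gene, made with HTSeqCount, and log2 values that they had normalized with limma. The gene annotation behind the counts was not given in the sources used here.

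Pools were grouped by the labelled genotype. Raw counts were fitted with edgeR 4.0.16 (R 4.3.3; TMM, quasi-likelihood test, genes above 1 CPM in at least 4 pools, Benjamini-Hochberg over all genes tested). The comparison over all pools had Cre as a term, and the others were contrasts in a fit of the 4 genotypes. The threshold for a call was 0.05 for the adjusted p and 1.5 for the fold change. Standard errors were taken from the fold change and its F statistic, and overlap was judged on log2 CPM with a prior count of 2. DESeq2 1.42.0, limma 3.58.1, other filters and scalings, the replicate number as a block and leaving out each pool were alternatives. Positions came from GENCODE vM21 (GRCm38), or RefSeq GRCm38.p6 for older symbols, and 17 genes had none. Distances are between gene midpoints.

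The named genes were Ern1, Xbp1 and Itgax, the called genes by smallest p in each comparison and examples of the gene lists. Further genes were picked with their values in view, and the members and lists were chosen with earlier results of these data known.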

Additional observations from a re-analysis of the deposited data

Results flagged for a closer look

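Lsm12 in the lone Cre-negative floxed pool, at 71.3 CPM, was far from the other 3 floxed pools, which were at 80.9 to 82.9 CPM. Fam134c in XBP1ΔDC replicate 3, at 14.1 CPM, was far from the 3 other XBP1ΔDC pools at 18.0 to 18.6 CPM. A small share of groups meets this gap rule by chance. The difference with the floxed allele was not the same with and without Cre for Itgb2 (interaction 1.72 on the log2 scale, adjusted p = 0.0379 by edgeR's quasi-likelihood test) and for Slc1a5 (1.05, adjusted p = 0.0467 by the same test). The call for Slc1a5 was lost in every fit that left out 1 pool, with library size scaling and with the replicate block, and that for Itgb2 was lost in 6 of the 10 fits that left out 1 pool and in the same other 2. In both genes the direction with Cre was shown by 3 of 3 floxed pools against all 4 unfloxed pools.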

How the results depend on the processing

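Over all pools, Arf2 and Cyb561 kept their calls in all 22 alternatives, at log2 fold changes of -2.79 to -2.58 and -2.90 to -2.57. Lsm12 lost its call in 12 of the 22, among them library size scaling (adjusted p = 0.053 by edgeR) and the replicate block (0.102). DESeq2 called 16 genes over all pools, 38 with Cre, 2 without Cre and 8 for the interaction; it put 12 genes with the allele in both Cre states, 8 of them on chromosome 11 within 20 Mb of Ern1, and 27 with Cre only. Without Cre, limma-voom called 0, limma on the deposited log2 values 3, and a fit of the 4 Cre-negative pools alone 0. Library size scaling gave 0 interactions, and dropping the filter gave 8 genes with Cre only. The 12 genes that DESeq2 put with the allele in both Cre states include Itgb2, whose log2 fold change by edgeR was only 0.05 without Cre. The causes of these differences were not tested. Leaving out 1 pool each gave 2 to 8 calls over all pools (8 without the lone floxed pool), 4 to 11 with Cre (4 without XBP1ΔDCIRE1truncDC replicate 1, 11 without its replicate 2), 0 to 1 without Cre, 0 to 1 for the interaction, 2 to 3 that followed the allele and 2 to 7 with Cre only. The fit without the lone floxed pool has the allele only with Cre, so its 8 calls are those of the contrast among Cre-positive pools. Itgax ranged from -0.05 (without XBP1ΔDCIRE1truncDC replicate 2) to 0.09.

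With the replicate block, 2 genes were called over all pools, 4 with Cre, 0 without Cre and 0 for the interaction, and 2 were with Cre only. The numbers are not a pairing in the labels, and pools of the same number did not deviate together (mean r -0.047 over 9 pairs, against 0.018 over 24 pairs of different numbers). Comparisons without Cre rest on 1 floxed pool.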

Other observations

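Mlkl, which encodes the pore-forming protein of necroptosis and lies on chromosome 8, had 0 counts in the lone Cre-negative floxed pool. It had 43, 101 and 100 counts in the other Cre-negative pools, 45 to 71 in XBP1ΔDC pools and 44 to 112 in XBP1ΔDCIRE1truncDC pools. Its adjusted p among Cre-negative pools was 0.516 by edgeR, while limma on the deposited log2 values called it there and for the interaction. The 3 floxed pools with Cre overlapped the unfloxed pools, so the gene went with the lone pool and not with the allele. It was chosen after its values were seen.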
